A study of Glycine max with 24 samples.

Results

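Gene expression was compared between the roots and the leaves of 1 soybean accession grown with little phosphorus (P). The accession was CD (Chundou), described by the study as tolerant of low P. The comparison takes the 3 arrays of CD roots and the 3 arrays of CD leaves in low P, 6 of the 24 arrays of the series, and covers 75990 probe sets, the groups of short probes that each read 1 transcript or part of one. All plants were seedlings grown in hydroponic culture for 10 days in half-strength Hoagland solution, with P at 0.005 mmol/L (low P) or 0.5 mmol/L (normal P). Each of the 8 groups of the series held 3 replicates, named as biological in the labels, with 1 Affymetrix Soybean Gene 1.1 ST array per replicate. The same tissue comparison is given beside it for CD in normal P and, in low P, for YH (Yunhefengwodou), described as sensitive to low P. Each accession is a single line, and each array averages over the cell types of an organ.

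Roots take up water, phosphate, nitrate and metals through transporters in their outer cell layers and load part of them into the xylem. Leaves hold the photosynthetic machinery, whose genes lie partly in the nucleus and partly in the plastid. Plants short of phosphate are known to draw on high-affinity PHT1 importers, on PHO1 proteins that export phosphate from cells, and on SPX and PHR proteins that sense and signal the phosphate state. Legumes are also known for isoflavonoids, which act in defence and in the exchange with rhizobia.

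The deposited values are intensities that the authors had normalized between arrays, and they were used here on the log2 scale. A difference is the mean log2 intensity of roots minus that of leaves, so 1 means 2-fold higher in roots and a negative value means higher in leaves. Pearson's r across all probe sets was 0.973 to 0.989 among the root arrays, 0.967 to 0.987 among the leaf arrays and 0.790 to 0.827 between the tissues. No detection call comes with these values. The lower quartile of the 6 arrays (log2 intensity 1.55 to 1.59) serves as a mark of dim signal, and the size of a fold is uncertain where 1 tissue lies near or under it. Of the probe sets called higher in roots 13.4% had a leaf mean under it, and of those called higher in leaves 12.9% had a root mean under it. Close gene copies can share probes on the array, so values of single members of a gene family carry that uncertainty. The arrays numbered 1 stood somewhat apart. Among the probe sets called higher in roots, replicate 1 was the highest of the 3 arrays in 62% of cases in roots and in 57.7% in leaves, against 41.1% and 39.7% over all probe sets. Counts without both of these arrays are therefore given, an alternative chosen after the values were seen.

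The tissue labels were checked against marker genes. Of 8 leaf photosynthesis probe sets 7 were higher in leaves, with a summed intensity of 3927 to 4282 in the leaf arrays and 519 to 588 in the root arrays. Of 19 probe sets for root uptake and isoflavone synthases 9 were higher in roots and 3 in leaves, with sums of 2008 to 2543 in roots and 219 to 276 in leaves. The root sums are led by the bright isoflavone synthases IFS2 and IFS1. The 3 higher in leaves were the uptake genes PHT1-6, PHT1-10 and IRT. Nodule markers were low in both tissues, with sums of 76.0 to 96.3 in roots and 54.6 to 61.2 in leaves over 15 probe sets, of which 2 were higher in roots. Seed markers gave 0 calls among 11 probe sets, with sums of 40.5 to 47.4 in roots and 41.6 to 48.0 in leaves.

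Roots and leaves of CD in low P differed at 11964 probe sets, which is 15.7% of all. In roots 6366 probe sets (8.38%) were higher, by 2.0-fold to 430.3-fold with a median of 3.28-fold. In leaves 5598 (7.37%) were higher, by 2.0-fold to 630.4-fold with a median of 3.76-fold. A probe set was called when its Benjamini-Hochberg adjusted p from limma over all probe sets was under 0.05 and its fold change was at least 2. Over all probe sets the median difference was -0.03, and 26311 had an unadjusted p under 0.05. Fewer cells of a type and less RNA per cell cannot be told apart in whole organs.

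The large differences fell about evenly on both tissues. At 4-fold or more 2505 probe sets were higher in roots and 2631 in leaves, at 32-fold or more 226 and 217, and at 256-fold or more 8 and 3. Calls were more frequent among bright probe sets. With all probe sets in 3 equal bands of mean intensity, 2.98% of the dimmest band, 18.4% of the middle band and 25.8% of the brightest band were called. They were also more frequent among the 32405 probe sets with a single gene symbol (14.1% higher in roots, 12% in leaves) than among the rest (4.14% and 3.93%). All 3 root arrays lay above all 3 leaf arrays at 21.5% of all probe sets, and all 3 leaf arrays lay above all 3 root arrays at 19.6%. Of the 263 probe sets followed one by one 237 were called, and in 0 of these 237 did the root and leaf arrays overlap. For the largest differences this was set in advance, because they were picked among probe sets without overlap. The called list members were picked by size among called probe sets, which also favours arrays without overlap. The count of overlaps is therefore no separate support for the calls. Members added for their role or their position in a list were not part of this count. Without both arrays numbered 1 the counts were 6359 for roots and 5420 for leaves.

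**Figure D1:**
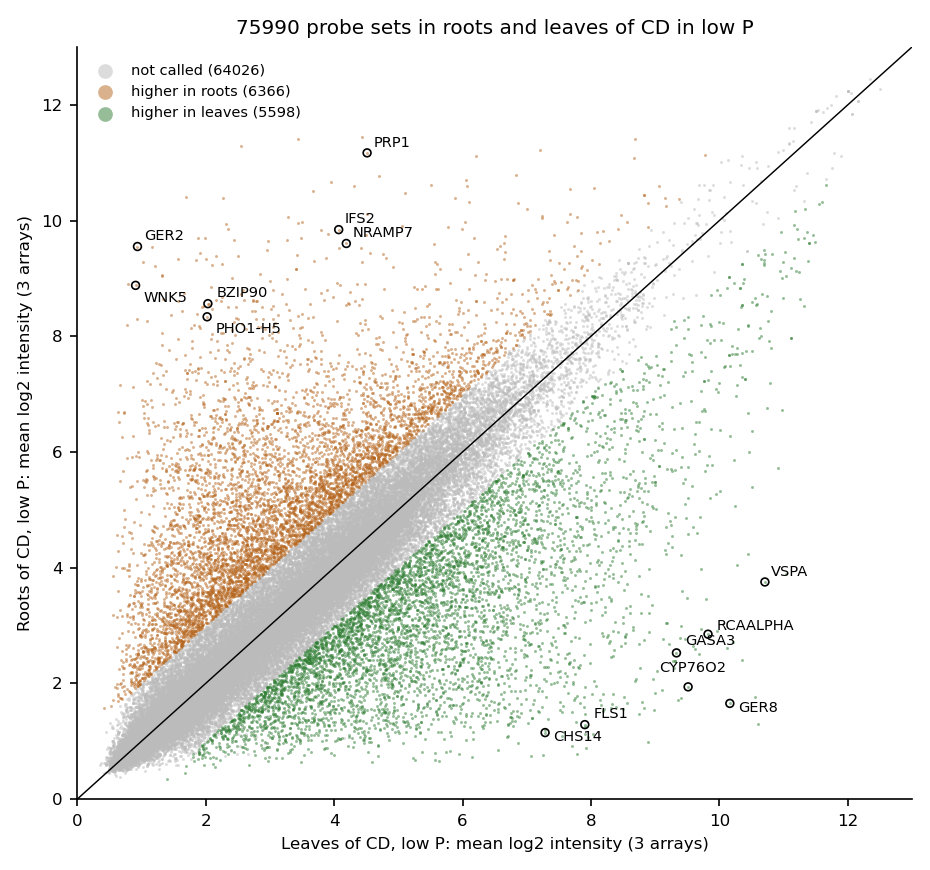
Mean log2 intensity of each probe set in CD leaves in low P (x axis) and CD roots in low P (y axis), each the mean of 3 arrays. Brown points are the 6366 probe sets called higher in roots, green points the 5598 called higher in leaves, and grey points those not called. The diagonal marks equal means, and the circled genes, such as GER2 at the upper left and GER8 at the lower right, are named in the text.

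Of the 10 largest differences towards roots 8 lay in genes with a LOC number, as do 30501 of the 32405 probe sets with a single symbol. LOC100305635 had 11.31, 11.24 and 11.32 in roots and 3.50, 2.17 and 1.96 in leaves, a difference of 8.75 (SE 0.487, adjusted p = 6.13e-12). LOC100819054 read 10.48, 10.47 and 10.29 in roots and 1.81, 1.89 and 1.38 in leaves and differed by 8.72 (SE 0.246, adjusted p = 2.05e-16). In both genes the root arrays lay close together, and leaf replicate 1 of LOC100305635 was the highest leaf array. GER2, a germin-like protein of the cell wall, had 9.70, 9.51 and 9.45 in roots and 1.07, 1.01 and 0.73 in leaves, a difference of 8.61 (SE 0.144, adjusted p = 1.24e-19). That is 392-fold in roots, with leaf values under the lower quartile of the arrays. WNK5, a kinase of the with-no-lysine family, stood at 8.88, 8.81 and 8.95 in roots and 1.12, 0.77 and 0.83 in leaves, which gave 7.97 (SE 0.119, adjusted p = 2.42e-20). Its leaf values were as dim as those of GER2. The other probe set of WNK5 was also called higher in roots, with a smaller difference of 4.38. The other genes among the 10 largest with a single gene symbol, LOC100499848, LOC100500520, LOC100788562, LOC100500599, LOC100500016 and LOC100786576, differed by 7.73 to 8.26. Of the probe sets without a single symbol 11899487 differed most towards roots, by 8.37 (SE 0.217, adjusted p = 6.18e-17).

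Towards leaves the genes with the largest differences included another germin-like protein, GER8. LOC100306307 had 10.70, 10.55 and 10.54 in leaves and 1.53, 1.45 and 0.90 in roots, a difference of -9.30 (SE 0.246, adjusted p = 7.91e-17). That is 630.4-fold in leaves, with a root signal under the lower quartile. GER8 read 10.13, 10.19 and 10.18 in leaves and 2.01, 1.58 and 1.37 in roots and differed by -8.51 (SE 0.179, adjusted p = 3.48e-18). CYP76O2, a cytochrome P450, had 9.95, 9.17 and 9.42 in leaves and 2.10, 1.80 and 1.92 in roots, a difference of -7.57 (SE 0.320, adjusted p = 8.00e-14). In these 3 genes the leaf arrays lay within 1 log2 unit of each other. LOC100816355, LOC100799817, LOC100813414, LOC100797696, LOC100816997 and LOC100777515 differed by -7.22 to -7.95, and both probe sets of LOC100797696 were among the 10 largest with a single symbol. Of the probe sets without a single symbol 12004815 differed most towards leaves, by -8.79 (SE 0.315, adjusted p = 6.66e-15).

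Genes with a name were grouped into 45 lists by symbol. The background for these lists is the set of 1904 probe sets with a name other than a LOC number, of which 23.1% were called higher in roots, 14% higher in leaves and 37.1% in either direction, with a median difference of 0.12. The counts of every list below are to be read against these shares. Photosynthesis, plastid-encoded and chlorophyll genes lay far on the leaf side. Chalcone synthases, phenylpropanoid enzymes and WRKY factors had the highest medians on the root side. Several families held members that were much higher in roots beside members that were much higher in leaves. No list reversed the direction in which it had more calls with quantile normalization, with median centring or without both arrays numbered 1. Moves from or to equal counts were not counted as reversals. Without both arrays numbered 1 the median changed sign in 4 lists, ALMT transporters, protease inhibitors and storage proteins, SWEET transporters and housekeeping genes. With quantile normalization it changed sign in 1, expansins and cell wall.

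**Figure D2:**
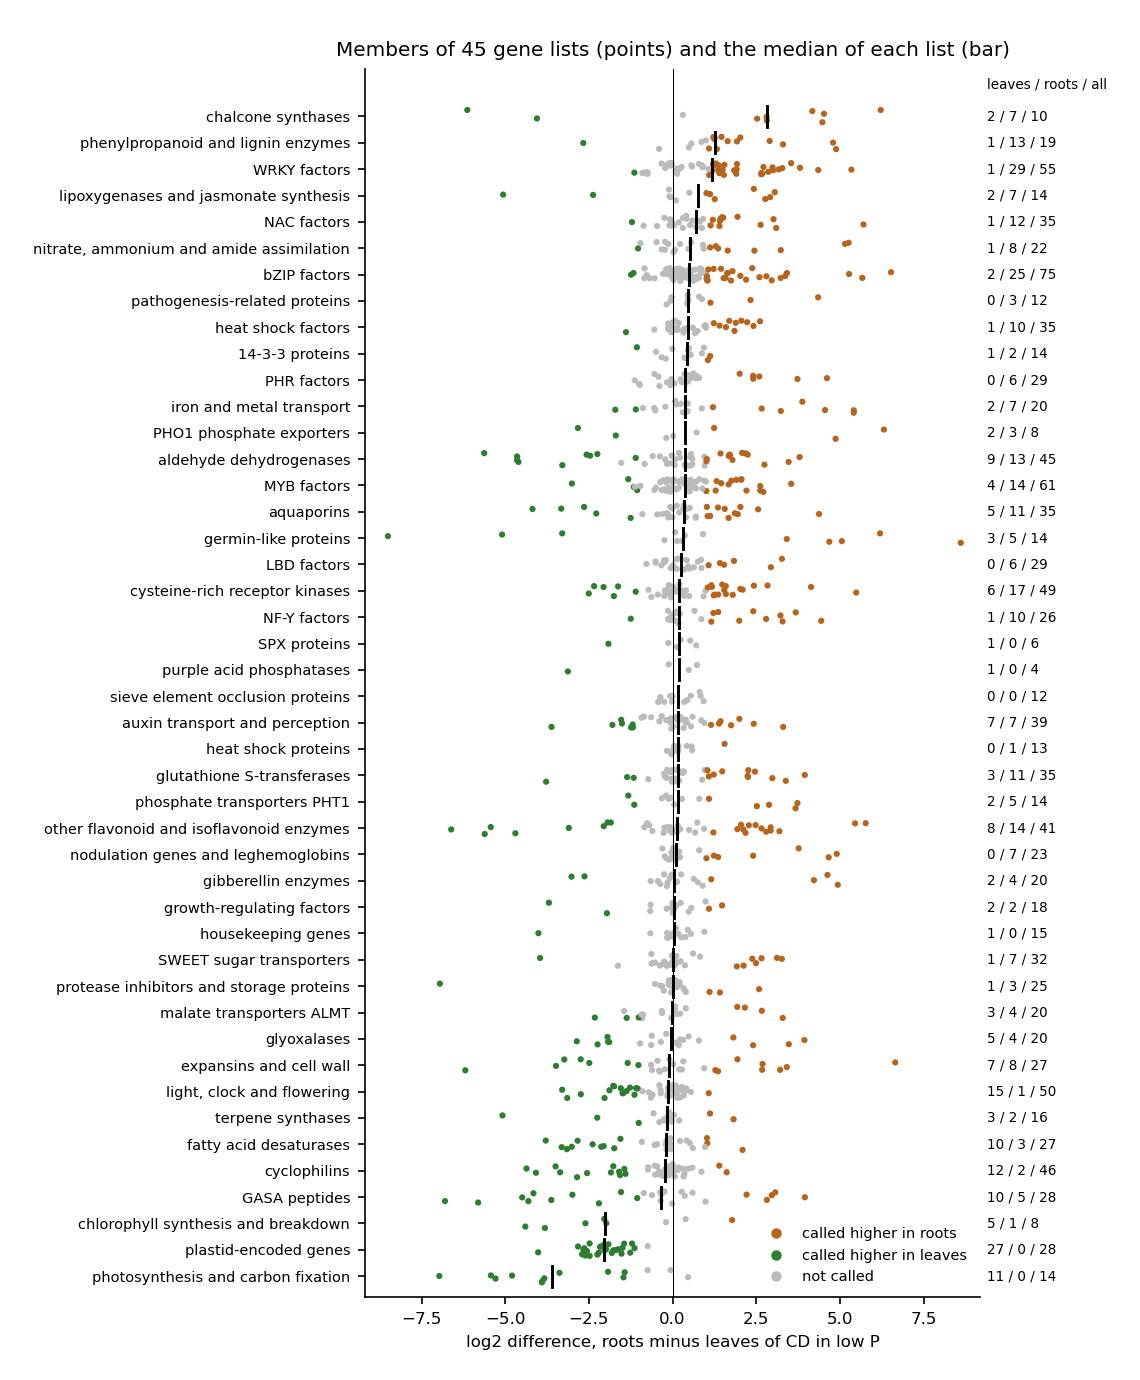
Difference in log2 intensity, roots minus leaves of CD in low P, for every member (point) of 45 gene lists, ordered by the list's median (black bar). Brown members were called higher in roots, green ones higher in leaves and grey ones not called, and the numbers at the right give leaves, roots and all members. The medians run from -3.61 for photosynthesis and carbon fixation to 2.81 for chalcone synthases.

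Genes of photosynthesis and carbon fixation were higher in leaves. Of 14 probe sets for such genes of the nucleus 11 were higher in leaves and 0 in roots, with a median difference of -3.61. RCAALPHA, a Rubisco activase, had 9.85, 9.90 and 9.72 in leaves and 3.31, 2.49 and 2.76 in roots, a difference of -6.97 (SE 0.196, adjusted p = 2.03e-16). RBCS1, a Rubisco small subunit, read 5.93, 6.12 and 6.41 in leaves and 0.46, 0.84 and 0.86 in roots and differed by -5.43 (SE 0.387, adjusted p = 3.13e-10). FBP, a fructose-bisphosphatase, stood at 7.51, 7.77 and 7.72 in leaves and 2.32, 2.25 and 2.55 in roots, which gave -5.29 (SE 0.221, adjusted p = 6.44e-14). The root arrays of RBCS1 lay under the lower quartile, and those of the other 2 genes lay above it. CAB3, a light-harvesting chlorophyll-binding protein, and PSAD, a photosystem I subunit, differed by -3.89 and -1.93. CA1, RCA03 and PTOX, the plastid terminal oxidase, were the 3 members not called, at -0.06, -0.75 and 0.46.

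Genes of the plastid genome were also higher in leaves, with strong signal in both tissues at the genes given. Of 28 probe sets for 19 plastid genes 27 were higher in leaves and 0 in roots, with a median of -2.05. The remaining one, for the ribosomal protein rps16, differed by -0.74 (adjusted p = 1.07e-05). A probe set of psbZ, a photosystem II subunit, had 10.33, 10.39 and 10.54 in leaves and 7.76, 7.72 and 7.78 in roots, a difference of -2.67 (SE 0.164, adjusted p = 3.02e-11). One of petA, which encodes cytochrome f, had 10.57, 10.59 and 10.68 in leaves and 8.10, 8.02 and 7.81 in roots and differed by -2.64 (SE 0.133, adjusted p = 1.29e-12). For atpA, an ATP synthase subunit, the values were 10.52, 10.66 and 10.74 in leaves and 8.10, 7.98 and 7.94 in roots, a difference of -2.64 (SE 0.137, adjusted p = 2.05e-12). The root arrays of all 3 lay far above the dim range. The nuclear gene TUFA, which encodes the plastid elongation factor Tu, was the only one of 15 housekeeping probe sets called. TUFA had 6.36, 6.42 and 6.56 in leaves and 2.23, 2.67 and 2.42 in roots, a difference of -4.01 (SE 0.152, adjusted p = 1.51e-14).

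Chlorophyll genes followed in part. Of 8 probe sets 5 were higher in leaves and 1 in roots. CHLH, a subunit of the magnesium chelatase that opens the chlorophyll branch, had 8.02, 8.20 and 7.99 in leaves and 3.39, 3.78 and 3.83 in roots, a difference of -4.4 (SE 0.254, adjusted p = 1.13e-11). CHLI, a second chelatase subunit, read 8.39, 8.66 and 8.46 in leaves and 4.62, 4.66 and 4.78 in roots and differed by -3.82 (SE 0.203, adjusted p = 3.09e-12). NYC1_2, a chlorophyll b reductase of chlorophyll breakdown, was also higher in leaves, with a difference of -2.60 (SE 0.228, adjusted p = 8.06e-09). SGR1, a stay-green protein of chlorophyll breakdown, went the other way. SGR1 had 4.41, 4.14 and 4.43 in roots and 3.12, 2.58 and 1.93 in leaves, a difference of 1.78 (SE 0.258, adjusted p = 1.16e-05). Its homologue SGR2 differed by -0.20 (adjusted p = 0.643), with overlapping arrays, and was not called.

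Among 50 probe sets for light perception, clock and flowering 15 were higher in leaves and 1 in roots. COL11, a CONSTANS-like zinc finger protein, had 6.46, 6.71 and 6.64 in leaves and 3.54, 3.38 and 2.99 in roots, a difference of -3.30 (SE 0.317, adjusted p = 3.37e-08). COL2A, of the same family, differed by -3.15 (SE 0.154, adjusted p = 7.66e-13), and CIB1, a cryptochrome-interacting factor, by -2.74 (SE 0.314, adjusted p = 4.56e-07). The clock gene TOC1 was the one higher in roots, where its 3 arrays lay about 1 log2 unit above those of leaves. TOC1 had 5.39, 5.22 and 5.23 in roots and 4.20, 4.29 and 4.10 in leaves, a difference of 1.08 (SE 0.229, adjusted p = 8.67e-04).

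Phosphate importers of the PHT1 family were higher in roots at 5 of 14 probe sets and in leaves at 2. PHT1-3 had 6.26, 6.03 and 6.12 in roots and 2.67, 1.97 and 2.59 in leaves, a difference of 3.73 (SE 0.189, adjusted p = 1.40e-12). PHT1-14 read 6.40, 5.56 and 5.62 in roots and 1.80, 2.36 and 2.40 in leaves and differed by 3.67 (SE 0.298, adjusted p = 2.49e-09). PHT1-1 was brighter in roots than in leaves but well above the dim range in both. PHT1-1 stood at 7.54, 7.54 and 7.47 in roots and 4.85, 4.53 and 4.53 in leaves, which gave 2.88 (SE 0.197, adjusted p = 1.69e-10). PHT1-2 and PHT1-9, the other members higher in roots, differed by 2.52 and 1.09. On the leaf side PHT1-10 differed by -1.15 (SE 0.261, adjusted p = 0.00171). PHT1-6 differed by -1.32 (SE 0.371, adjusted p = 0.00923). Its call was lost without leaf replicate 1 (-1.07, adjusted p = 0.0585) and without both arrays numbered 1 (-1.01, adjusted p = 0.136), with adjusted p of 0.00234 to 0.136 over all alternatives.

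PHO1 genes held 2 members that differed far more than the rest. Of 8 probe sets 3 were higher in roots and 2 in leaves. PHO1-H5 had 8.31, 8.48 and 8.22 in roots and 2.47, 1.70 and 1.90 in leaves, a difference of 6.31 (SE 0.305, adjusted p = 6.55e-13). PHO1-H1 read 6.47, 6.39 and 6.33 in roots and 1.95, 1.39 and 1.23 in leaves and differed by 4.87 (SE 0.308, adjusted p = 4.90e-11). PHO1-H5 was 79.6-fold higher in roots. Leaf replicate 1 was the highest leaf array of both genes, and the other leaf arrays of PHO1-H1 lay under the lower quartile. PHO1-H9 was higher in roots by 1.24 (SE 0.272, adjusted p = 0.00119). On the leaf side stood PHO1-H7 and PHO1-H3. PHO1-H7 had 5.96, 5.61 and 5.83 in leaves and 3.12, 3.13 and 2.66 in roots, a difference of -2.83 (SE 0.233, adjusted p = 3.15e-09). PHO1-H3 differed by -1.70 (SE 0.265, adjusted p = 2.87e-05). PHO1-H13, PHO1-H14 and PHO1-H2 were not called, at -0.19, 0.72 and 0.02. Without leaf replicate 1 PHO1-H14 was called (1.0, adjusted p = 0.00123), with adjusted p of 0.00123 to 0.149 over the alternatives.

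Genes of phosphate signalling were called at few probe sets. Of 6 SPX genes, whose products bind inositol phosphates and restrain PHR factors, SPX4 alone was called. SPX4 had 4.59, 4.67 and 4.49 in leaves and 2.61, 2.77 and 2.61 in roots, a difference of -1.92 (SE 0.199, adjusted p = 1.07e-07). SPX3 (difference 0.53, adjusted p = 0.0342) and SPX8 (difference 0.71, adjusted p = 0.0211) lay under 2-fold, with every root array above every leaf array. SPX2, SPX6 and SPX9 lay at 0.13, 0.24 and -0.13, with overlapping arrays. Among 29 probe sets for PHR transcription factors 6 were higher in roots and 0 in leaves. The shares were 20.7% and 0%, beside 23.1% and 14% of all named probe sets. PHR8 had 7.51, 7.49 and 7.57 in roots and 3.74, 4.03 and 3.59 in leaves, a difference of 3.73 (SE 0.184, adjusted p = 9.28e-13). PHR6 differed by 2.59 (SE 0.268, adjusted p = 1.02e-07). PHR31 differed by 4.61 (SE 0.283, adjusted p = 2.98e-11) on one probe set and by -0.04 on the other. Of 4 purple acid phosphatases, enzymes that free phosphate from organic compounds, 1 was called, and it was higher in leaves. PAP had 7.57, 7.51 and 7.21 in leaves and 4.39, 4.35 and 4.15 in roots, a difference of -3.13 (SE 0.301, adjusted p = 3.45e-08). PAP4, PAP14 and PAP02 lay at 0.73, 0.48 and -0.12.

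**Figure D3:**
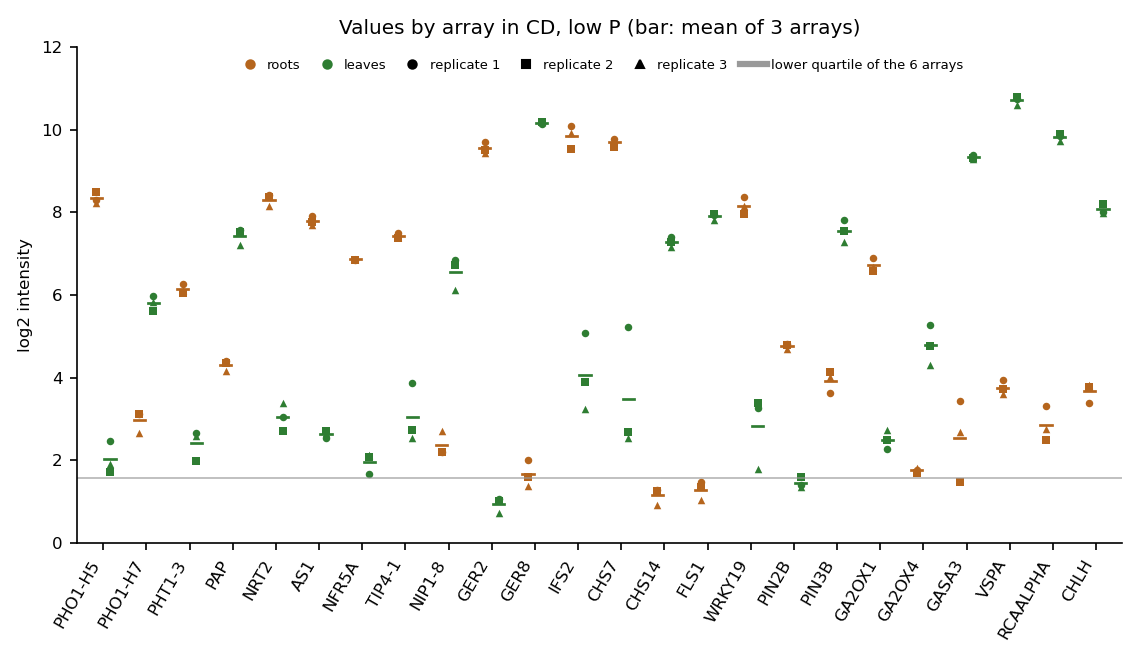
Log2 intensity in each of the 6 arrays for 24 named genes, with roots in brown, leaves in green, the replicate given by the point's shape and the mean of 3 arrays by a bar. In every gene shown the root and leaf arrays do not overlap, and leaf replicate 1 is the highest leaf array for CHS7, IFS2 and TIP4-1. The grey line marks the lower quartile of the 6 arrays.

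Genes of nitrogen uptake and assimilation were higher in roots at 8 of 22 probe sets and in leaves at 1. NRT2, a high-affinity nitrate transporter, had 8.41, 8.36 and 8.15 in roots and 3.05, 2.70 and 3.38 in leaves, a difference of 5.26 (SE 0.354, adjusted p = 1.33e-10). AS1, an asparagine synthetase, read 7.92, 7.76 and 7.69 in roots and 2.54, 2.71 and 2.66 in leaves and differed by 5.15 (SE 0.302, adjusted p = 1.39e-11). AS2, a second asparagine synthetase, varied widely among the root arrays. AS2 had 6.69, 5.79 and 5.01 in roots and 2.57, 2.96 and 2.27 in leaves, a difference of 3.23 (SE 0.961, adjusted p = 0.0140). Its call was lost without root replicate 1 (2.81, adjusted p = 0.0713) and without both arrays numbered 1 (2.79, adjusted p = 0.123), with adjusted p of 1.20e-04 to 0.123 over the alternatives. AMT4.5, an ammonium transporter, was the leaf-side call at -1.03 (SE 0.282, adjusted p = 0.00769), and it fell under 2-fold without root replicate 3 (-0.89) or leaf replicate 1 (-0.96).

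Nodulation genes were higher in roots at 7 of 23 probe sets and in leaves at 0. NFR5A, a receptor of rhizobial Nod factors, had 6.85, 6.85 and 6.88 in roots and 1.66, 2.09 and 2.11 in leaves, a difference of 4.91 (SE 0.219, adjusted p = 1.92e-13). SYMRK-BETA, a symbiosis receptor kinase, differed by 4.67 (SE 0.197, adjusted p = 7.53e-14). NSP1, a GRAS-family regulator, differed by 3.77 (SE 0.169, adjusted p = 2.02e-13), and NARK, the receptor kinase of nodule autoregulation, by 2.41. The leghemoglobin genes LB1, LB2, LB3 and LB4 lay between -0.19 and 0.20 and were not called.

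Aquaporins fell on both sides, with 11 of 35 probe sets higher in roots and 5 in leaves. TIP4-1, a channel of the vacuole membrane, had 7.49, 7.37 and 7.40 in roots and 3.87, 2.73 and 2.53 in leaves, a difference of 4.38 (SE 0.302, adjusted p = 1.92e-10). PIP2-3, a channel of the plasma membrane, read 7.18, 7.39 and 7.46 in roots and 5.11, 4.91 and 4.34 in leaves and differed by 2.56 (SE 0.327, adjusted p = 2.11e-06). Leaf replicate 1 was the highest leaf array of both genes. NIP5-2 differed by 2.03 (SE 0.207, adjusted p = 8.46e-08). In leaves NIP1-8 was the most different. NIP1-8 had 6.85, 6.72 and 6.11 in leaves and 2.21, 2.19 and 2.71 in roots, a difference of -4.19 (SE 0.472, adjusted p = 3.61e-07). SIP1-6 and PIP2-7 were also higher in leaves, with differences of -3.33 (SE 0.234, adjusted p = 2.59e-10) and -2.65 (SE 0.282, adjusted p = 1.60e-07).

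Of 20 probe sets for iron and metal genes 7 were higher in roots and 2 in leaves. NRAMP7, a metal importer of the NRAMP family, had 9.31, 9.90 and 9.60 in roots and 4.36, 4.13 and 4.07 in leaves, a difference of 5.41 (SE 0.250, adjusted p = 3.22e-13). NRAMP5B, of the same family, read 5.22, 5.48 and 5.53 in roots and 1.09, 0.62 and 0.85 in leaves and differed by 4.56 (SE 0.203, adjusted p = 1.86e-13). BHLH300, a basic helix-loop-helix factor, stood at 6.33, 6.30 and 6.89 in roots and 1.31, 1.09 and 0.86 in leaves, which gave 5.42 (SE 0.234, adjusted p = 1.08e-13). The leaf arrays of NRAMP5B and BHLH300 lay under the lower quartile, while those of NRAMP7 did not. IRT, named for iron-regulated metal transport, was higher in leaves. IRT had 4.34, 3.77 and 4.25 in leaves and 1.93, 2.72 and 2.58 in roots, a difference of -1.71 (SE 0.279, adjusted p = 4.88e-05). NRAMP2A was also higher in leaves, with a difference of -1.1 (SE 0.199, adjusted p = 1.66e-04).

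Transporters of the ALMT family, known for malate efflux, were higher in roots at 4 of 20 probe sets (20%) and in leaves at 3 (15%). Both shares lay near the 23.1% and 14% of all named probe sets. ALMT29 had 4.82, 4.44 and 3.90 in roots and 1.04, 1.24 and 1.0 in leaves, a difference of 3.29 (SE 0.379, adjusted p = 4.89e-07). ALMT13 read 6.82, 6.56 and 6.59 in roots and 4.29, 4.63 and 4.58 in leaves and differed by 2.16 (SE 0.167, adjusted p = 1.20e-09). ALMT34 had 3.75, 5.34 and 4.09 in roots and 1.77, 1.61 and 1.79 in leaves, a difference of 2.67 (SE 0.353, adjusted p = 3.45e-06). Root replicate 2 of ALMT34 lay well above the other root arrays. ALMT21 was higher in leaves, with a difference of -2.32 (SE 0.256, adjusted p = 2.62e-07). The other leaf-side calls fell under 2-fold when single arrays were left out, ALMT4 (-1.37) without leaf replicate 1 (-0.82) and ALMT10 (-1.01) without root replicate 1 (-0.82) or leaf replicate 3 (-0.98).

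SWEET genes, which encode sugar exporters, were higher in roots at 7 of 32 probe sets (21.9%) and in leaves at 1 (3.12%). Among all named probe sets these shares were 23.1% and 14%. In both tissues 8 of the 32 lay under the lower quartile. SWEET38 had 5.33, 5.60 and 4.80 in roots and 2.01, 2.12 and 1.81 in leaves, a difference of 3.26 (SE 0.210, adjusted p = 6.59e-11). SWEET14 differed by 3.12 (SE 0.191, adjusted p = 2.96e-11) and SWEET5 by 2.66 (SE 0.302, adjusted p = 4.11e-07). SWEET31 was the one higher in leaves. SWEET31 had 4.44, 5.23 and 5.68 in leaves and 1.30, 0.95 and 1.22 in roots, a difference of -3.96 (SE 0.463, adjusted p = 6.11e-07). Its leaf arrays spread over more than 1 log2 unit, all far above the dim root arrays.

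Flavonoid genes fell on both sides. Chalcone synthases, which make the first flavonoid skeleton, were higher in roots at 7 of 10 probe sets and in leaves at 2. CHS7 had 9.76, 9.57 and 9.75 in roots and 5.23, 2.67 and 2.52 in leaves, a difference of 6.22 (SE 0.454, adjusted p = 4.59e-10). Its leaf replicate 1 stood well above the other leaf arrays and far under every root array. CHS4A read 10.95, 10.23 and 10.60 in roots and 6.43, 6.0 and 5.77 in leaves and differed by 4.53 (SE 0.321, adjusted p = 2.90e-10). CHS9 had 6.90, 6.01 and 6.21 in roots and 2.31, 1.88 and 1.5 in leaves, a difference of 4.48 (SE 0.314, adjusted p = 2.41e-10). CHS14 and CHS13 went the other way. CHS14 had 7.40, 7.29 and 7.16 in leaves and 1.27, 1.26 and 0.92 in roots, a difference of -6.14 (SE 0.343, adjusted p = 6.64e-12). CHS13 read 7.27, 7.36 and 7.73 in leaves and 3.17, 3.60 and 3.44 in roots and differed by -4.05 (SE 0.310, adjusted p = 9.46e-10). CHS6 was not called (0.30, adjusted p = 0.481), with overlapping arrays. Several chalcone synthase genes are near-identical copies, so their single values are uncertain.

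Among 41 probe sets for other flavonoid enzymes 14 were higher in roots and 8 in leaves. Both isoflavone synthase genes were higher in roots. IFS2, an isoflavone synthase, had 10.09, 9.53 and 9.91 in roots and 5.07, 3.89 and 3.25 in leaves, a difference of 5.77 (SE 0.408, adjusted p = 2.75e-10). IFS1, its homologue, read 9.29, 9.0 and 9.19 in roots and 5.97, 5.83 and 6.09 in leaves and differed by 3.19 (SE 0.210, adjusted p = 8.82e-11). CHR5, a chalcone reductase, had 9.70, 9.36 and 9.52 in roots and 4.84, 3.94 and 3.44 in leaves, a difference of 5.45 (SE 0.361, adjusted p = 9.92e-11). For IFS2 and CHR5 leaf replicate 1 was the highest leaf array, while the leaf arrays of IFS1 lay close together. HIDH, a hydroxyisoflavanone dehydratase, differed by 2.48. Other isoflavonoid genes were not called, such as IF7GT5 at -0.27, IOMT1 at 0.13, IMAT1 at 0.74 and the reductase CHR4 at 0.68. The largest differences towards leaves were those of FLS1 and F3H. FLS1, a flavonol synthase, had 7.92, 7.96 and 7.82 in leaves and 1.48, 1.36 and 1.03 in roots, a difference of -6.62 (SE 0.311, adjusted p = 4.29e-13). F3H, a flavanone 3-hydroxylase, read 6.83, 6.82 and 6.42 in leaves and 1.29, 0.93 and 1.01 in roots and differed by -5.62 (SE 0.429, adjusted p = 9.50e-10). Their root arrays lay under the lower quartile. Chalcone isomerases fell on both sides, CHI1B1 and CHI4A at 2.93 and 2.28 and CHI3A2 at -5.44 (SE 0.379, adjusted p = 2.23e-10). UGT78K1, a flavonoid glycosyltransferase, differed by -3.10.

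Phenylpropanoid and lignin genes were mostly higher in roots, at 13 of 19 probe sets against 1 in leaves, with a median of 1.26. PAL1.2 and PAL1.1, phenylalanine ammonia-lyases at the entry of the pathway, differed by 2.90 and 1.92, and C4H1, a cinnamate 4-hydroxylase, by 2.02. The peroxidases POD and PRX4 had the largest differences of the list, while PRX2, PRX2B and PRX3 were not called, at 0.86, 0.56 and -0.40. POD had 7.38, 7.53 and 7.21 in roots and 2.33, 2.37 and 2.75 in leaves, a difference of 4.89 (SE 0.300, adjusted p = 2.94e-11). PRX4 read 8.92, 8.91 and 8.84 in roots and 4.53, 4.16 and 3.58 in leaves and differed by 4.80 (SE 0.239, adjusted p = 1.06e-12). DIR22, a dirigent protein, differed by 3.30 (SE 0.347, adjusted p = 1.33e-07). CAD1, a cinnamyl alcohol dehydrogenase, was the member higher in leaves. CAD1 had 5.80, 5.47 and 4.88 in leaves and 2.82, 2.72 and 2.60 in roots, a difference of -2.67 (SE 0.258, adjusted p = 3.70e-08).

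Lipoxygenase and jasmonate genes were higher in roots at 7 of 14 probe sets and in leaves at 2. LOX10 differed by 3.05 (SE 0.270, adjusted p = 9.45e-09). Of the 8 allene oxide synthase and cyclase genes of the jasmonate branch 5 were higher in roots, among them the synthase CYP74A1 at 2.92 (SE 0.187, adjusted p = 6.04e-11) and the cyclase AOC1 at 2.77 (SE 0.276, adjusted p = 6.10e-08). The others, AOS1, AOC4 and AOC5, were not called, at 0.50, -0.06 and 0.10. The vegetative lipoxygenase VLXC was higher in leaves. VLXC had 9.54, 9.82 and 9.61 in leaves and 4.86, 4.39 and 4.52 in roots, a difference of -5.06 (SE 0.330, adjusted p = 7.88e-11). LOX9 differed by -2.38 (SE 0.513, adjusted p = 0.00104). VSPA, a vegetative storage protein of leaves, was the only one of 25 probe sets for protease inhibitors and storage proteins higher in leaves. VSPA had 10.75, 10.78 and 10.60 in leaves and 3.95, 3.71 and 3.60 in roots, a difference of -6.96 (SE 0.368, adjusted p = 2.77e-12). That is 124-fold. Of the 3 higher in roots 1 was for BBI-1, a Bowman-Birk inhibitor. BBI-1 read 3.61, 3.78 and 3.28 in roots and 1.05, 0.84 and 1.03 in leaves and differed by 2.59 (SE 0.218, adjusted p = 4.55e-09). The others were for KTI-2, a Kunitz inhibitor, at 1.1 and 1.42, and the call of the former was lost under 7 of 12 alternatives (adjusted p 0.00236 to 0.197), which were quantile normalization, leaving out any single array but leaf replicate 1, and leaving out both arrays numbered 1.

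Pathogenesis-related proteins were higher in roots at 3 of 12 probe sets and in leaves at 0, 25% and 0% beside 23.1% and 14% of all named probe sets. OLPa, an osmotin-like protein, had 8.01, 7.94 and 7.86 in roots and 3.35, 3.75 and 3.66 in leaves, a difference of 4.35 (SE 0.159, adjusted p = 9.57e-15). WIN, named as wound-induced, read 6.90, 6.41 and 5.82 in roots and 4.0, 4.42 and 3.72 in leaves and differed by 2.33 (SE 0.280, adjusted p = 9.16e-07). Glutathione S-transferases were higher in roots at 11 of 35 probe sets and in leaves at 3. GSTU42 differed by 3.95 (SE 0.280, adjusted p = 2.85e-10) and GSTU62 by 3.38 (SE 0.222, adjusted p = 8.93e-11). GSTU37 went the other way. GSTU37 had 5.28, 5.60 and 5.56 in leaves and 1.59, 1.81 and 1.70 in roots, a difference of -3.78 (SE 0.265, adjusted p = 2.41e-10). Cysteine-rich receptor kinases were higher in roots at 17 of 49 probe sets and in leaves at 6. CRK70 led the root side and CRK64 the leaf side, at -2.51 (SE 0.265, adjusted p = 1.42e-07). CRK70 had 7.46, 6.46 and 6.56 in roots and 1.36, 1.25 and 1.40 in leaves, a difference of 5.49 (SE 0.315, adjusted p = 1.02e-11). Terpene synthases were higher in roots at 2 of 16 probe sets and in leaves at 3. TPS20 had 6.60, 6.81 and 6.55 in leaves and 1.51, 1.55 and 1.65 in roots, a difference of -5.09 (SE 0.347, adjusted p = 1.66e-10).

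Germin-like proteins spanned the widest range of the 45 lists, from -8.51 for GER8 to 8.61 for GER2, with 5 of 14 probe sets higher in roots and 3 in leaves. GER2, GER3 and GER4 are annotated on chromosome 16, and their tissue differences ran in both directions. GER3 had 7.62, 7.32 and 7.57 in roots and 1.04, 1.46 and 1.41 in leaves, a difference of 6.20 (SE 0.257, adjusted p = 5.81e-14). GER4 read 6.05, 4.32 and 4.05 in leaves and 1.54, 1.52 and 1.47 in roots and differed by -3.30 (SE 0.545, adjusted p = 5.80e-05). Leaf replicate 1 of GER4 lay well above the other leaf arrays. GER11 differed by 5.06 (SE 0.335, adjusted p = 1.01e-10) and GER10 by -5.10 (SE 0.429, adjusted p = 4.43e-09).

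Transcription factor families were called in roots at shares on both sides of the 23.1% of all named probe sets. The share was 34.3% for NAC, 38.5% for NF-Y and 28.6% for heat shock factors, and it was 23% for MYB, 20.7% for LBD and 11.1% for growth-regulating factors. WRKY factors, many of which act in defence, were higher in roots at 29 of 55 probe sets (52.7%, against 23.1% of all named probe sets) and in leaves at 1. WRKY19 had 8.38, 7.96 and 8.15 in roots and 3.27, 3.39 and 1.80 in leaves, a difference of 5.34 (SE 0.372, adjusted p = 2.17e-10). WRKY50 read 8.60, 8.50 and 8.49 in roots and 4.38, 4.11 and 4.05 in leaves and differed by 4.35 (SE 0.190, adjusted p = 1.29e-13). Leaf replicate 3 of WRKY19 lay under the other leaf arrays. The leaf-side call, WRKY58 at -1.14 (adjusted p = 0.0112), was lost without root replicate 3 (adjusted p = 0.0512) or leaf replicate 1 (adjusted p = 0.0531), with adjusted p of 8.08e-04 to 0.0531 over the alternatives. NAC factors gave 12 of 35 in roots and 1 in leaves. NAC34 had 8.12, 8.15 and 8.08 in roots and 2.97, 2.13 and 2.13 in leaves, a difference of 5.71 (SE 0.337, adjusted p = 1.59e-11). For bZIP factors the counts were 25 of 75 in roots and 2 in leaves. BZIP90 had 8.49, 8.59 and 8.61 in roots and 2.34, 2.24 and 1.52 in leaves, a difference of 6.53 (SE 0.211, adjusted p = 1.47e-15). BZIP30 and TGA17, of the same class, differed by 5.67 (SE 0.204, adjusted p = 7.15e-15) and 5.28 (SE 0.275, adjusted p = 2.21e-12). MYB factors gave 14 of 61 in roots and 4 in leaves, with MYB51 at 3.55 (SE 0.329, adjusted p = 2.06e-08) and MYB127 at -3.01 (SE 0.231, adjusted p = 1.06e-09).

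NF-Y subunits, which bind CCAAT boxes, gave 10 of 26 in roots and 1 in leaves, and the 3 largest differences were those of A subunits. NF-YA1B had 5.46, 5.54 and 5.51 in roots and 1.06, 1.12 and 1.0 in leaves, a difference of 4.44 (SE 0.219, adjusted p = 9.24e-13). NF-YA03 differed by 3.68 (SE 0.251, adjusted p = 1.58e-10) and NF-YA12 by 3.29 (SE 0.279, adjusted p = 5.17e-09). LBD factors gave 6 of 29 in roots and 0 in leaves, with LBD7.2 at 3.27 (SE 0.290, adjusted p = 1.01e-08). Heat shock factors gave 10 of 35 in roots and 1 in leaves, with HSF-25 at 2.61 (SE 0.259, adjusted p = 5.58e-08), while of 13 probe sets for heat shock proteins HSP70 alone was called, at 1.55 (SE 0.179, adjusted p = 4.86e-07). Growth-regulating factors, which act in leaf growth, gave 2 of 18 in each direction. GRF5 had 7.27, 6.49 and 6.81 in leaves and 3.10, 3.21 and 3.17 in roots, a difference of -3.70 (SE 0.291, adjusted p = 1.54e-09). GRF4 differed by -1.96 (SE 0.214, adjusted p = 2.21e-07). The root-side calls, GRF15 (1.48) and GRF1 (1.09), were both lost without leaf replicate 2 (adjusted p = 0.132 and 0.0812) and without leaf replicate 3. GRF15 also lost its call without root replicate 1 or 2, and GRF1 in a separate fit. Their adjusted p ran from 0.00431 to 0.132 and 1.64e-04 to 0.0812 over the alternatives. The other probe set of GRF1 differed by 0.11 (adjusted p = 0.858) and was not called.

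Of 39 probe sets for auxin transport and perception 7 were higher in roots and 7 in leaves, 17.9% each beside 23.1% and 14% of all named probe sets. The efflux carriers PIN2B and PIN2A were higher in roots. PIN2B had 4.81, 4.79 and 4.68 in roots and 1.40, 1.60 and 1.36 in leaves, a difference of 3.30 (SE 0.251, adjusted p = 8.51e-10). PIN2A differed by 2.0 (SE 0.262, adjusted p = 3.10e-06). The carriers PIN3B and PIN3A were higher in leaves. PIN3B had 7.81, 7.54 and 7.28 in leaves and 3.63, 4.13 and 4.02 in roots, a difference of -3.62 (SE 0.223, adjusted p = 3.18e-11). PIN3A differed by -1.80 (SE 0.242, adjusted p = 4.32e-06), whereas PIN3D was not called, at 0.04, nor were PIN1A and PIN1C, at 0.60 and 0.23. The 4 TIR1 auxin receptor genes were all higher in leaves, TIR1A at -1.19, TIR1B at -1.54, TIR1C at -1.19 and TIR1D at -1.51. GH3, an auxin-conjugating enzyme, was higher in roots, at 2.43 (SE 0.310, adjusted p = 2.09e-06).

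Of 20 probe sets for gibberellin enzymes 4 were higher in roots and 2 in leaves, 20% and 10% beside 23.1% and 14% of all named probe sets. GA3OX3, a 3-oxidase that makes active gibberellins, had 8.19, 8.73 and 8.76 in roots and 5.18, 3.08 and 2.61 in leaves, a difference of 4.94 (SE 0.601, adjusted p = 1.08e-06). Leaf replicate 1 was high for this gene but still under every root array. GA2OX2, a 2-oxidase that inactivates gibberellins, read 7.28, 6.79 and 6.69 in roots and 2.27, 2.21 and 2.41 in leaves and differed by 4.63 (SE 0.221, adjusted p = 5.47e-13). GA2OX1, of the same kind, differed by 4.22 (SE 0.156, adjusted p = 1.09e-14). Another 2-oxidase, GA2OX4, was higher in leaves. GA2OX4 had 5.28, 4.76 and 4.30 in leaves and 1.76, 1.70 and 1.82 in roots, a difference of -3.02 (SE 0.188, adjusted p = 3.90e-11). GA20OX3, a 20-oxidase of gibberellin synthesis, differed by -2.63 (SE 0.356, adjusted p = 4.65e-06).

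GASA peptides, small cysteine-rich proteins that often respond to gibberellin, were higher in leaves at 10 of 28 probe sets and in roots at 5. GASA3 had 9.39, 9.31 and 9.30 in leaves and 3.43, 1.47 and 2.67 in roots, a difference of -6.80 (SE 0.502, adjusted p = 5.58e-10). GASA5 read 9.65, 9.65 and 8.94 in leaves and 3.74, 3.50 and 3.57 in roots and differed by -5.81 (SE 0.277, adjusted p = 5.27e-13). The root arrays of GASA3 spread over almost 2 log2 units, all far under the leaf arrays. GASA9 varied among leaf arrays (8.20, 7.34 and 3.35) and differed by -4.50 (SE 0.840, adjusted p = 2.38e-04). GASA29 had 7.14, 7.32 and 7.26 in roots and 5.15, 2.86 and 1.85 in leaves, a difference of 3.95 (SE 0.618, adjusted p = 2.98e-05). GASA7 was also higher in roots, by 3.07 (SE 0.264, adjusted p = 6.36e-09).

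Cell wall genes were higher in roots at 8 of 27 probe sets and in leaves at 7. Proline-rich wall proteins took opposite sides. PRP1 had 11.14, 11.14 and 11.23 in roots and 5.56, 4.17 and 3.81 in leaves, a difference of 6.66 (SE 0.434, adjusted p = 8.08e-11). SBPRP read 10.37, 10.47 and 10.48 in leaves and 4.53, 4.23 and 3.98 in roots and differed by -6.19 (SE 0.273, adjusted p = 1.50e-13). Leaf replicate 1 was the highest leaf array of PRP1. PRP3 differed by -3.49 (SE 0.253, adjusted p = 4.14e-10) on one probe set and by -2.75 (adjusted p = 8.48e-07) on the other. The expansin EXP1 was higher in roots, by 2.69 (SE 0.317, adjusted p = 7.02e-07), and EXPB8, an expansin too, was higher in leaves. EXPB8 had 7.69, 7.80 and 7.82 in leaves and 4.63, 4.49 and 4.47 in roots, a difference of -3.24 (SE 0.251, adjusted p = 1.20e-09). XET1, a xyloglucan endotransglycosylase, differed by 3.41 (SE 0.860, adjusted p = 0.00408).

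Lipid desaturases were higher in leaves at 10 of 27 probe sets and in roots at 3. FAD3C, an omega-3 fatty acid desaturase, had 6.65, 6.58 and 6.21 in leaves and 3.19, 2.57 and 2.31 in roots, a difference of -3.79 (SE 0.378, adjusted p = 5.90e-08). FAD8.2, of the same function, read 8.47, 8.72 and 8.59 in leaves and 5.65, 5.26 and 4.92 in roots and differed by -3.31 (SE 0.176, adjusted p = 2.90e-12). SLD1.5, a sphingolipid desaturase, differed by -3.16 (SE 0.254, adjusted p = 2.16e-09). SACPD-C, a stearoyl-ACP desaturase, was higher in roots, by 2.09 (SE 0.328, adjusted p = 3.11e-05). The other root-side calls lay near 2-fold and were lost under several alternatives, FAD7-2 (1.04) without any 1 of the 6 arrays, with adjusted p of 9.53e-04 to 0.137 over the alternatives, and SLD1.3 (1.03) with quantile normalization and without root replicate 1 or leaf replicate 2 or 3 (down to 0.88).

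Cyclophilins, prolyl isomerases that assist folding, were higher in leaves at 12 of 46 probe sets and in roots at 2. CYP60 had 6.90, 7.20 and 7.02 in leaves and 2.67, 2.78 and 2.55 in roots, a difference of -4.37 (SE 0.218, adjusted p = 1.11e-12). Aldehyde dehydrogenases gave 13 of 45 in roots and 9 in leaves. ALDH2B4 had 7.86, 8.10 and 8.0 in leaves and 2.14, 2.65 and 2.27 in roots, a difference of -5.63 (SE 0.211, adjusted p = 1.28e-14). ALDH2B8 read 6.55, 6.33 and 6.59 in roots and 3.56, 2.42 and 3.08 in leaves and differed by 3.47 (SE 0.249, adjusted p = 3.66e-10). ALDH2B4 and ALDH2B8 thus stood on opposite sides with no overlap of arrays. Glyoxalases, which detoxify methylglyoxal, gave 4 of 20 in roots and 5 in leaves, with GLYI-20 at 3.94 (SE 0.281, adjusted p = 3.21e-10) and GLYI-23 at -2.86 (SE 0.253, adjusted p = 9.61e-09). Of 12 probe sets for sieve element occlusion proteins 0 were called, with differences of -0.43 to 0.93 from SEOD to SEO-F1. Among 14 probe sets for 14-3-3 proteins 2 were higher in roots and 1 in leaves, with the called ones SGF14O, GF14C and SGF14n at 1.12, 1.05 and -1.07. Without leaf replicate 2 GF14C and SGF14n fell under 2-fold (0.97 and -0.96), as did SGF14n without root replicate 3 (-0.96).

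The tissue difference of CD was then set beside that in normal P. In normal P 5944 probe sets (7.82%) were higher in roots and 5223 (6.87%) in leaves. Of the root calls in low P 80.5% were also called in normal P, which is 86.2% of the root calls in normal P. For leaves the shares were 84.4% and 90.4%. In roots 1243 and in leaves 875 of the low P calls were not called in normal P, and 1 root call was opposite. A call in 1 condition alone does not show that the conditions differ, so the interaction of tissue and P was tested, which is the tissue difference in low P minus that in normal P.

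This interaction called 92 probe sets (0.121%), of which 76 (0.1%) had a more positive and 16 (0.0211%) a more negative tissue difference in low P. Of the 76, 74 were called higher in roots in low P, and 53 of the 76 had no call in normal P. Of the 1904 named probe sets 10 were called (0.525%). With the replicate numbers as a block 51 were called. The count moved with single arrays of CD. Leaving out 1 leaf array in low P gave 58 (replicate 2) and 55 (replicate 3). Leaving out 1 root array in normal P gave 143, 57 and 50 for replicates 1, 2 and 3, and leaving out leaf replicate 1 in normal P gave 59. Without both arrays numbered 1 in low P it was 49.

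Among probe sets with a single gene symbol the 3 largest positive interactions were in genes with LOC numbers. LOC100775275 had 7.38, 5.22 and 5.40 in roots and 0.90, 1.01 and 0.93 in leaves in low P. In normal P its means were 1.01 ± 0.173 in roots and 0.95 ± 0.0694 in leaves (SD, n = 3). The interaction was 5.0 (SE 0.486, adjusted p = 1.70e-05). Root replicate 1 in low P lay above the other root arrays, and all other groups of CD lay under the lower quartile. LOC100787534 had 6.22, 5.47 and 4.51 in low P roots and an interaction of 4.05 (SE 0.410, adjusted p = 2.87e-05). LOC100780254 had 6.67, 5.63 and 6.54 in low P roots and an interaction of 4.0 (SE 0.462, adjusted p = 1.82e-04). Over the alternatives the adjusted p of these genes ran from 1.03e-08 to 0.0282, 7.93e-07 to 0.0206 and 5.90e-05 to 0.00451, in that order.

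Among genes with a name WIN had the largest positive interaction, 2.88 (SE 0.396, adjusted p = 0.00151). Its tissue difference was 2.33 in low P and -0.55 in normal P, where roots read 3.37 ± 0.318 (SD, n = 3). CHS2, a chalcone synthase, had 7.63, 6.75 and 7.26 in roots and 4.43, 4.26 and 4.52 in leaves in low P. Its tissue difference was 2.81 in low P and 0.63 in normal P, an interaction of 2.18 (SE 0.362, adjusted p = 0.0114). For both genes all low P root arrays lay above the mean of normal P roots. SPX3 had 4.26, 3.74 and 3.87 in roots and 3.39, 3.50 and 3.40 in leaves in low P. In normal P roots read 2.39 ± 0.0904 and leaves 3.58 ± 0.116 (SD, n = 3), so the tissue difference changed sign from -1.19 in normal P to 0.53 in low P, an interaction of 1.72 (SE 0.257, adjusted p = 0.00375). OAS-TL3, an O-acetylserine (thiol) lyase of cysteine synthesis, had 7.76, 7.21 and 7.72 in roots and 6.21, 6.21 and 6.24 in leaves in low P. Its difference was 1.35 against -0.19 in normal P, an interaction of 1.54 (SE 0.220, adjusted p = 0.00228). With the replicate block the adjusted p was 0.0294 for WIN, 0.0385 for CHS2, 0.0379 for SPX3 and 0.0539 for OAS-TL3, so the last lost its call. CHS2 lost its call without both arrays numbered 1 (adjusted p = 0.0925). Over all alternatives the adjusted p ran from 5.52e-04 to 0.0294, 0.00401 to 0.0925, 0.00381 to 0.0440 and 3.58e-04 to 0.0539 for these genes.

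PTS3, TPS2, GA2OX2 and CHS10 also had a more positive difference in low P, by 2.70, 1.87, 1.63 and 2.09, but all 4 lost the call with the replicate block (adjusted p = 0.0787, 0.106, 0.106 and 0.254). Their highest adjusted p over the alternatives were 0.0787, 0.147, 0.308 and 0.356. On the negative side ALMT16 had 4.81, 5.85 and 4.58 in roots and 2.66, 3.80 and 2.98 in leaves in low P. Roots in normal P read 7.84 ± 0.712 (SD, n = 3), above each of the low P root arrays. Its tissue difference was 1.93 in low P and 5.22 in normal P, an interaction of -3.28 (SE 0.550, adjusted p = 0.0117), and it lost the call in a separate fit, without root replicate 3 and without leaf replicate 1 of normal P (adjusted p 0.00309 to 0.104 over the alternatives). LOC100803722 differed between tissues by 1.29 in low P and 4.33 in normal P, an interaction of -3.04 (SE 0.453, adjusted p = 0.00368). FRD3b, whose Arabidopsis homologue exports citrate for the movement of iron, had 2.66 against 4.26 and an interaction of -1.60 (SE 0.307, adjusted p = 0.0395), and the call was lost under 13 of 18 alternatives (adjusted p 0.00550 to 0.339), the replicate block among them.

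**Figure D4:**
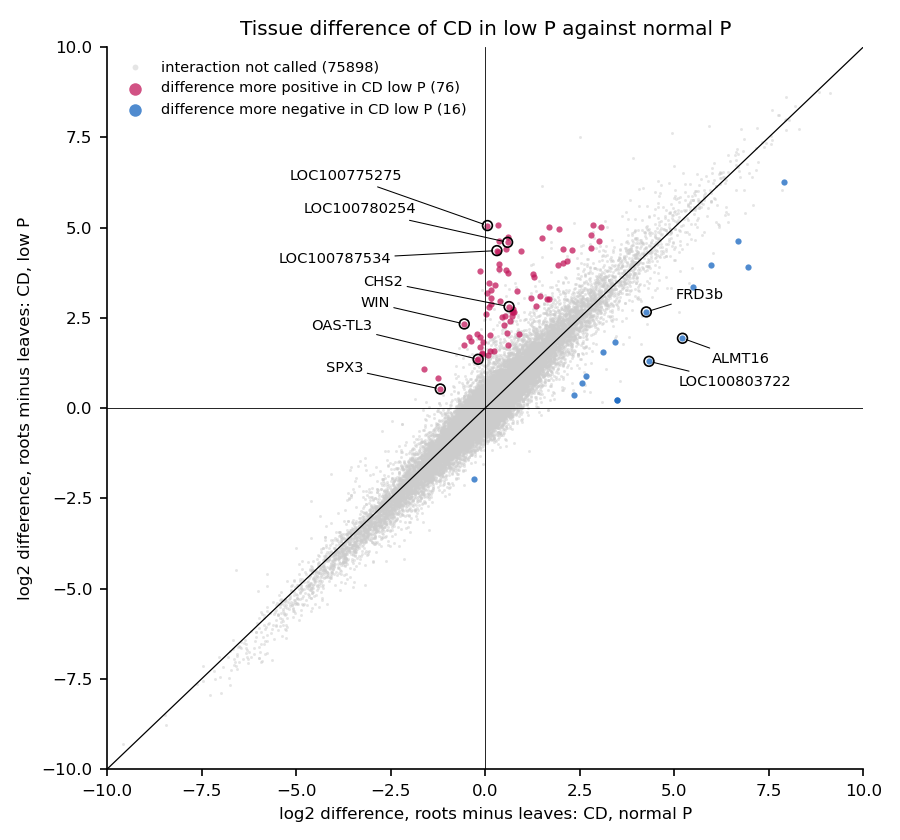
Tissue difference (log2, roots minus leaves) of each probe set in CD in normal P (x axis) and in low P (y axis), with the diagonal as equality. Pink and blue points are the 76 and 16 probe sets whose interaction of tissue and P was called, and the circled genes are named in the text. The circled LOC100775275 lies near 0 in normal P and near 5 in low P.

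In low P the sensitive accession YH showed 7403 probe sets (9.74%) higher in roots and 5288 (6.96%) higher in leaves. Of the CD root calls 69.4% were also root calls in YH, which is 59.6% of the YH root calls, and for leaves the shares were 68.7% and 72.7%. Opposite calls were made in YH at 24 probe sets higher in CD roots and at 60 higher in CD leaves. The interaction of tissue and accession, the tissue difference of CD minus that of YH, called 4518 probe sets (5.95%), with 1839 (2.42%) more positive and 2679 (3.53%) more negative in CD. Of the named probe sets 14.7% were called. No tissue difference was called in CD at 1564 of the 2679 and at 584 of the 1839. The paper reports sequence differences (SNPs) between CD and YH. Whether they affect the binding of the array's probes was not tested, so the accession calls are differences in signal.

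Several of the largest negative interactions came with a high value in YH roots. LOC100795714 had means of 1.38 ± 0.319 in CD roots, 1.86 ± 0.734 in CD leaves, 7.93 ± 0.342 in YH roots and 1.61 ± 0.328 in YH leaves (SD, n = 3). Its interaction was -6.80 (SE 0.762, adjusted p = 6.85e-06). LBD37 had 3.29 ± 0.148 in CD roots, 3.28 ± 0.342 in CD leaves, 7.95 ± 0.389 in YH roots and 3.47 ± 0.207 in YH leaves (SD, n = 3). In both genes only YH roots were bright, and the interaction of LBD37 was -4.47 (SE 0.408, adjusted p = 4.85e-07). LBD30, of the same family, stood at 7.18 ± 0.367 (SD, n = 3) in YH roots, with means of 2.20 to 2.86 in the other groups, and its interaction was -4.53 (SE 0.513, adjusted p = 7.92e-06). IRT had 2.41 ± 0.420 in CD roots, 4.12 ± 0.307 in CD leaves, 5.33 ± 0.136 in YH roots and 2.86 ± 0.229 in YH leaves (SD, n = 3). It was thus higher in leaves in CD and higher in roots in YH, with an interaction of -4.19 (SE 0.394, adjusted p = 7.24e-07). SWEET7 differed by 2.49 in CD and 5.76 in YH, an interaction of -3.27 (SE 0.370, adjusted p = 7.66e-06).

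Others came with a low value in YH leaves. GASA32 had 6.42 ± 0.0351 in CD roots, 7.48 ± 0.373 in CD leaves, 6.0 ± 0.292 in YH roots and 2.09 ± 0.667 in YH leaves (SD, n = 3). Its interaction was -4.97 (SE 0.509, adjusted p = 2.19e-06). WRKY58 stood at 2.73 ± 0.0541 (SD, n = 3) in YH leaves against 5.76 ± 0.350 in CD leaves, an interaction of -4.30 (SE 0.465, adjusted p = 4.58e-06). BZIP124 stood at 3.08 ± 0.795 (SD, n = 3) in YH leaves against 6.84 ± 0.251 in CD leaves, an interaction of -3.25 (SE 0.466, adjusted p = 1.15e-04). IQD29, a protein of the calmodulin-binding IQD family, showed the same order, with an interaction of -3.51 (SE 0.520, adjusted p = 1.67e-04). A further pair was bright in CD leaves alone. LOC100805716 read 10.05, 9.89 and 9.97 there, an interaction of -6.60 (SE 0.526, adjusted p = 7.78e-08). LOC100798749 read 8.29, 7.24 and 7.59 there, an interaction of -6.04 (SE 0.869, adjusted p = 1.20e-04).

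On the positive side LOC100305359 was bright in CD roots (6.87, 6.51 and 6.40) and dim in YH roots, at 0.86 ± 0.0194 (SD, n = 3), with an interaction of 5.54 (SE 0.311, adjusted p = 9.57e-10). LOC100775275, which also had the largest positive interaction with P, had an accession interaction of 5.06 (SE 0.486, adjusted p = 9.53e-07), with YH means of 1.17 ± 0.147 in roots and 1.18 ± 0.289 in leaves (SD, n = 3). LOC100790398 had 8.15 ± 0.0867 in CD roots, 3.50 ± 0.199 in CD leaves, 4.33 ± 0.249 in YH roots and 4.63 ± 0.203 in YH leaves (SD, n = 3). Its interaction was 4.96 (SE 0.257, adjusted p = 4.24e-10). COL2B, a CONSTANS-like gene, had 3.23 ± 0.201 in CD roots, 5.12 ± 0.118 in CD leaves, 3.48 ± 0.155 in YH roots and 9.41 ± 0.128 in YH leaves (SD, n = 3). The leaf excess was larger in YH, and the interaction was 4.04 (SE 0.310, adjusted p = 5.08e-08). SWEET29 had 5.89 ± 0.171 in CD roots, 3.77 ± 0.203 in CD leaves, 5.05 ± 0.275 in YH roots and 6.88 ± 0.603 in YH leaves (SD, n = 3). It was higher in roots in CD and higher in leaves in YH, an interaction of 3.95 (SE 0.326, adjusted p = 1.32e-07). PTS-L5 differed by 4.33 in CD and 0.85 in YH, an interaction of 3.48 (SE 0.712, adjusted p = 0.00347). The cyclophilin CYP28, the Rubisco activase RCA03, the chaperone HSP90A1, the ammonium transporter AMT1.4 and SWEET34 had interactions of 3.12 to 3.47, each with a higher mean in YH leaves than in CD leaves.

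**Figure D5:**
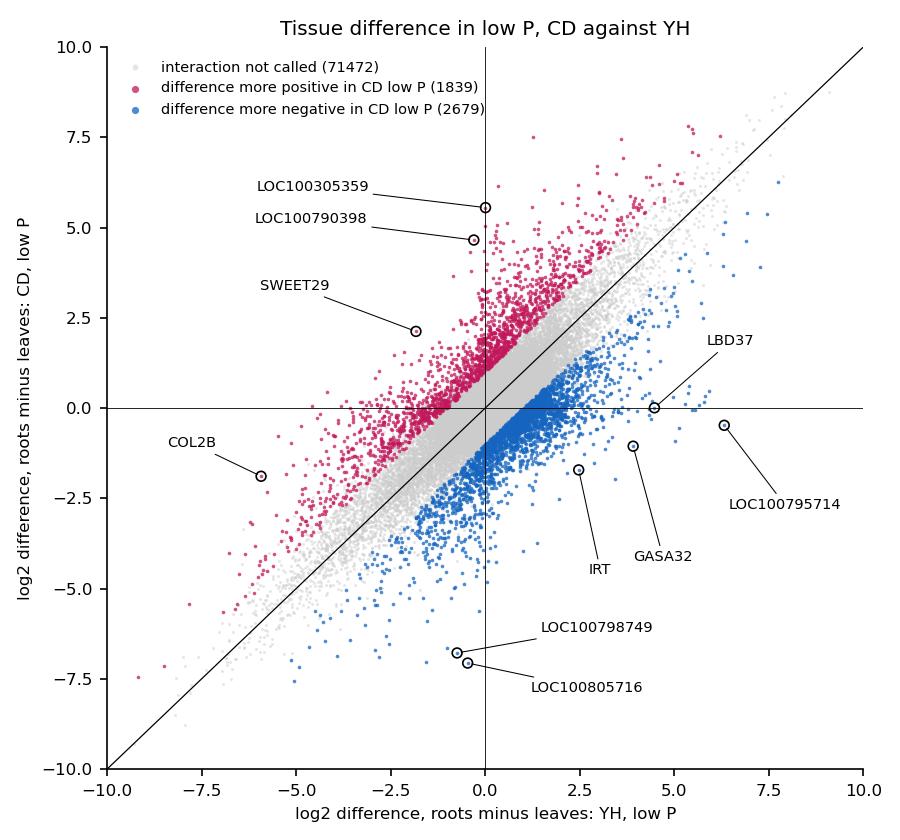
Tissue difference (log2, roots minus leaves) in low P of each probe set in YH (x axis) and in CD (y axis), with the diagonal as equality. Pink and blue points are the 1839 and 2679 probe sets whose interaction of tissue and accession was called, and the circled genes are named in the text. LOC100805716 and LOC100798749 lie low in CD and near 0 in YH.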

How the data were processed

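Total RNA of roots and leaves was hybridised to Affymetrix Soybean Gene 1.1 ST arrays, 1 array per replicate, in 8 groups of 3. The intensities used here were deposited as linear values that the authors had already background-corrected, combined per probe set and normalized between arrays. The study's methods name RMA for this step, whereas the submitters' processing notes name MAS5, and the values carry no detection call, so which of these made them stays unknown. With 3 arrays per group their number limits the precision. The files' genome build is not given in the sources used here, so no coordinates are printed.

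The values were log2-transformed and fitted in limma 3.58.1 (R 4.3.3) with 1 mean per group over all 24 arrays, which share 1 estimate of the spread (16 residual and 4.22 prior degrees of freedom). Tables and figures were made in Python 3.11.15 with pandas 2.3.3 and matplotlib 3.10.9. Benjamini-Hochberg adjustment ran over all 75990 probe sets, and calls required at least a 2-fold change together with an adjusted p below 0.05. Tests were two-sided. With 3 arrays against 3 an exact permutation test of a single probe set cannot go below 0.1, so none is given. SAM, the test of the study's methods, was an alternative and used the 20 possible assignments of 6 arrays. The fit was also run on simulated data with independent noise in each array, so likeness between same-numbered arrays was not part of that test.

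GEO's platform annotation, with symbols updated through RefSeq (Glycine_max_v4.0), gave 1 gene symbol for 32405 probe sets, several for 1586 and none for 41999, and no gene is named from a probe set with several. The genes named were chosen among probe sets with 1 symbol. The 10 with the largest difference in each direction were taken from called probe sets whose root and leaf arrays did not overlap. Each list gave up to 3 called members in each direction, and lists of 10 or fewer also gave their uncalled members. Each interaction gave up to 8 called probe sets in each direction, those with a name first, with the 3 largest of LOC-numbered genes beside them. Where a gene had several probe sets, the one with the highest mean was taken. A few further members, CA1, PTOX, CAB3, PSAD, the leghemoglobins, HIDH, UGT78K1, NARK, the PAL, cinnamate hydroxylase, CHI and TIR1 genes, the remaining PHT1 genes and the sieve element genes, were added for their role or their position in a list. The members and lists were chosen with earlier results of these data known.

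The labels call the replicates biological but do not say that they are separate plants or pools, so p-values measure the spread between these samples. To see whether replicate numbers pair the tissues, deviations from the group means were correlated across probe sets. In CD in low P same-numbered arrays gave r of 0.421, 0.132 and 0.324. Root array 2 with leaf array 3 gave 0.131, and root array 3 with leaf array 2 gave 0.205. The other pairs of unlike number, each with an array numbered 1, gave -0.379 to -0.185. These values do not settle whether the numbers pair the tissues. The main fit did not use the numbers, and a block by replicate number was run as an alternative. In CD in normal P the values of same-numbered arrays were 0.0863, -0.0541 and 0.328, and in YH in low P 0.44, 0.032 and 0.426. Alternatives were to quantile-normalize, to centre each array on its median, to drop the dimmest 33.3% of probe sets by mean intensity, separate fits, the replicate number as a block, other thresholds, SAM and leaving out each array. Leaving out both CD low P arrays numbered 1 was added after the values were seen.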

Additional observations from a re-analysis of the deposited data

Results flagged for a closer look

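The tissue difference of CD in low P differed from that in normal P at 92 probe sets by limma's interaction test, and the difference itself was tested in each case. Among the genes named, the tissue difference was more positive in low P for LOC100775275 (5.0 on the log2 scale), LOC100787534 (4.05), LOC100780254 (4.0), WIN (2.88), PTS3 (2.70), CHS2 (2.18), CHS10 (2.09), TPS2 (1.87), SPX3 (1.72), GA2OX2 (1.63) and OAS-TL3 (1.54). Of these the call of GA2OX2 was lost under 15 of 18 alternatives, that of CHS10 under 12 of 17, that of TPS2 under 3 of 18, that of PTS3 under 2 of 17 and those of CHS2 and OAS-TL3 under 1 of 18 each. It was more negative in low P for ALMT16 (-3.28), LOC100527581 (-3.06), LOC100803722 (-3.04), LOC100777556 (-2.05), LOC100808896 (-2.0), LOC100809740 (-1.88), LOC100527435 (-1.80) and FRD3b (-1.60). Of the last group the calls of LOC100527581, LOC100777556 and FRD3b were each lost under 13 of 18 alternatives, that of LOC100808896 under 16 of 18, that of LOC100809740 under 13 of 17, that of LOC100527435 under 5 of 18 and that of ALMT16 under 3 of 18.

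In low P the tissue difference of CD differed from that of YH at 4518 probe sets, again by a test of the difference itself. It was more positive in CD for LOC100305359 (5.54), LOC100775275 (5.06), LOC100790398 (4.96), COL2B (4.04), SWEET29 (3.95), PTS-L5 (3.48), HSP90A1 (3.47), CYP28 (3.32), RCA03 (3.27), AMT1.4 (3.27) and SWEET34 (3.12). It was more negative in CD for LOC100795714 (-6.80), LOC100805716 (-6.60), LOC100798749 (-6.04), GASA32 (-4.97), LBD30 (-4.53), LBD37 (-4.47), WRKY58 (-4.30), IRT (-4.19), IQD29 (-3.51), SWEET7 (-3.27) and BZIP124 (-3.25). Groups of 3 arrays are too small for the test of single arrays that lie far from the others, so none was run. An effect of sequence differences between CD and YH on probe binding was not tested either.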

How the results depend on the processing

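No alternative reversed a result. Of 2739 alternative values of 229 tissue differences, 2684 kept their direction and their side of the threshold, 54 fell short of it in 19 genes or probe sets and 1 newly passed it. All 395 values of the accession interactions named kept their side, whereas 110 of 337 values of the interactions with P fell short, in 13 of 19 cases. Normalization, separate fits, SAM (6405 higher in roots and 5659 in leaves) and the filter on dim probe sets left both tissue counts within 1.5 times. With the replicate number as a block 6402 probe sets were higher in roots and 5655 in leaves, 5587 were called in the accession interaction and 51 in the interaction with P, and no other count moved by more than 1.5 times.

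The interaction with P gave 50 calls in a separate fit and 49 without both arrays numbered 1. Without a fold threshold 11424 were higher in roots and 9233 in leaves. With an adjusted p under 0.01 the interactions gave 39 for P and 2746 for accession. With a fold of at least 4 the counts were 2505 in roots, 2631 in leaves, 52 for P and 1178 for accession. Leaving out 1 array at a time gave 5903 to 6904 in roots, 5509 to 5688 in leaves, 50 to 143 for P and 3727 to 4532 for accession. The interaction with P moved by more than 1.5 times without CD leaf arrays 2 (58) and 3 (55) of low P, without CD root arrays 1 (143), 2 (57) and 3 (50) of normal P, and without CD leaf array 1 (59) of normal P. The cause was not tested, except that stricter thresholds call fewer probe sets by construction. Signal near background limits folds where 1 tissue is dim.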
